A study of Mus musculus with 12 samples.

Results

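The 6 segments TRAJ21, TRAJ17, TRAJ16, TRAJ15, TRAJ13 and TRAJ12 are joining (J) segments in the 3′ part of the mouse Tcra locus, which encodes the T cell receptor alpha chain. They were taken by name from the 43 Traj columns of each deposited table, whose rows are variable (Trav) segments and whose entries are the fraction of the Tcra repertoire carried by each Trav-Traj pair. A segment's share is its column sum as a percent of the total of its own table. TRAJ18, which lies between TRAJ21 and TRAJ17, was not counted among them because it is the J segment of the invariant NKT cell receptor.

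A Traj segment supplies the end of the variable exon of a rearranged Tcra gene. In CD4+CD8+ double-positive (DP) thymocytes the RAG recombinase joins Trav to Traj segments in successive rounds, and each new round replaces the earlier joint with a more upstream Trav and a more downstream Traj segment. Early joints therefore use the 5′ end of the Traj array and the Trav segments nearest to it, and segments of the 3′ part are reached in later rounds in cells that stay in the DP stage.

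The study sequenced Tcra transcripts from CD3e-negative DP thymocytes, sorted before positive selection from mice aged 4 to 6 weeks, and its title names RORγt, RAG gene expression and the Tcra repertoire. Mice were homozygous wild type (WT) or homozygous DPASE knockout (KO), an abbreviation that the labels do not spell out. All mice were C57BL/6J carrying strain 129 TcrdCreER at their Tcra-Tcrd loci and a Rosa26 ZsG reporter allele, given as Rosa26ZsG/ZsG under strain and as Rosa26ZsG/+ under genotype. Cells were taken at steady state, as all preselection DP cells, or 24 h or 48 h after 1 mg of tamoxifen, when ZsGreen+ cells were sorted. Tamoxifen activates CreER, here made from the Tcrd locus, so that the pulse marks a cohort of cells that were expressing Tcrd at that time, along with their descendants. Each of the 6 groups (WT and KO at each of the 3 samplings) had 2 libraries, made from total RNA by 5′ template-switch RACE with a Trac primer. The labels mention groups of 2 mice without tying libraries to single mice, so p-values cover only the scatter among libraries, which may be technical.

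Of the 12 tables, 8 summed to 0.995 to 0.998, and the other 4, which are replicate 2 of each labelled group, WT and KO alike, summed to 1.97 to 1.99. Shares take out this difference of scale. The same 4 tables also stood apart in which Trav rows they filled: 42.4% to 79.7% of their 474 pairs of a shared Trav row with one of the 6 segments were at 0, against 0.633% to 18.4% in the other 8. The row TRAV15-2/DV6-2 held 9.77% to 18.3% of each of these 4 tables and 0.557% to 1.1% of each of the others. Against replicate 1 of the same group, 21 Trav rows were over 2-fold lower and 3 over 2-fold higher in all 4 labelled groups, while no Traj column was. Results on single Traj columns and on Trav partners are therefore given with and without these 4 tables where they matter. Leaving them out leaves 1 library in each labelled group, whose spread is then assumed to equal that of the steady-state libraries. The tables hold no marker genes of cell types. The invariant NKT pair (TRAV11 or TRAV11D with TRAJ18) made up 0% to 0.0504% of a table and the MAIT pair (TRAV1 with TRAJ33) 0% to 0.0503%. Trav rows that also serve Tcrd (named DV) made up 7.07% to 40.1% of a single segment's share, with medians by segment of 10.3% to 12.7%. One such row, TRAV15-2/DV6-2, made up 11.9% to 20.6% of the summed share of the 6 in the 4 tables. In the other 8 it made up 0.295% to 1.42%. The number of reads behind each table is unknown, so no counting interval could be given.

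The 6 segments lie on the plus strand of chromosome 14 in GRCm38, within 7.82 kb. The sequences below are the annotated segments of GENCODE vM21, shown because each share below is that of transcripts assigned to one of these stretches, and because the core is what they have in common. Capitals mark the conserved J core that was searched for on the segment's own strand, TTNG followed by any 5 bases and GGNAC, which was found in 40 of the 43 Traj segments with a column (all except TRAJ58, TRAJ38 and TRAJ33). The mice carry a strain 129 locus, so their own sequence may differ from this reference, and the build behind the deposited tables is not given in the sources used here.
TRAJ21: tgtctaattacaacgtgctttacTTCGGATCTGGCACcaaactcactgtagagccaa
TRAJ17: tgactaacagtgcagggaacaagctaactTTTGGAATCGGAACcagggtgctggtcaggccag
TRAJ16: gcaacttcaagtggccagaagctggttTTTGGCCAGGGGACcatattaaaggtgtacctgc
TRAJ15: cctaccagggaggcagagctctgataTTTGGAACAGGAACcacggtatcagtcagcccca
TRAJ13: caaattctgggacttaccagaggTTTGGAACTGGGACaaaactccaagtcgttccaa
TRAJ12: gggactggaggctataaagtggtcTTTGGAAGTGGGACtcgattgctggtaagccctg

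TRAJ21 spans chr14:54198790-54198846 (57 bases), and TRAJ17 spans chr14:54201775-54201837 (63 bases). TRAJ16 spans chr14:54203134-54203194 (61 bases), and TRAJ15 spans chr14:54204422-54204481 (60 bases). TRAJ13 spans chr14:54205741-54205797 (57 bases), and TRAJ12 spans chr14:54206553-54206610 (58 bases). TRAJ21 starts 41.5 kb and TRAJ12 49.3 kb downstream of TRAJ58, the most 5′ segment with a column, and their distances to the constant segment Trac are 21.7 kb and 14.0 kb. TRAJ20, TRAJ19 and the pseudogene TRAJ14 are annotated inside the same stretch and have no column. All 6 columns were above 0 in every table.

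All 6 segments had a lower share in KO than in WT at each of the 3 samplings, with no overlap between the KO and the WT libraries in any of the 18 comparisons. Summed over the 6, the share at steady state was 14% and 15.3% in the WT libraries and 10% and 11.6% in the KO libraries. At 24 h the sum was 3.86% and 2.7% in WT and 2% and 1.51% in KO. At 48 h it was 14.2% and 12.4% in WT and 6.36% and 6.44% in KO. The KO mean was thus 74.1% of the WT mean for steady state, 53.5% for 24 h and 48.1% for 48 h. Such non-overlap with KO lower was common among all 43 columns, with 44.2% of them at steady state, 67.4% after 24 h and 46.5% after 48 h, and KO was higher without overlap in 46.5%, 14.0% and 37.2%. Shares of one table add up to 100%, so a lower share of some columns comes with a higher share of others.

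**Figure D1:**
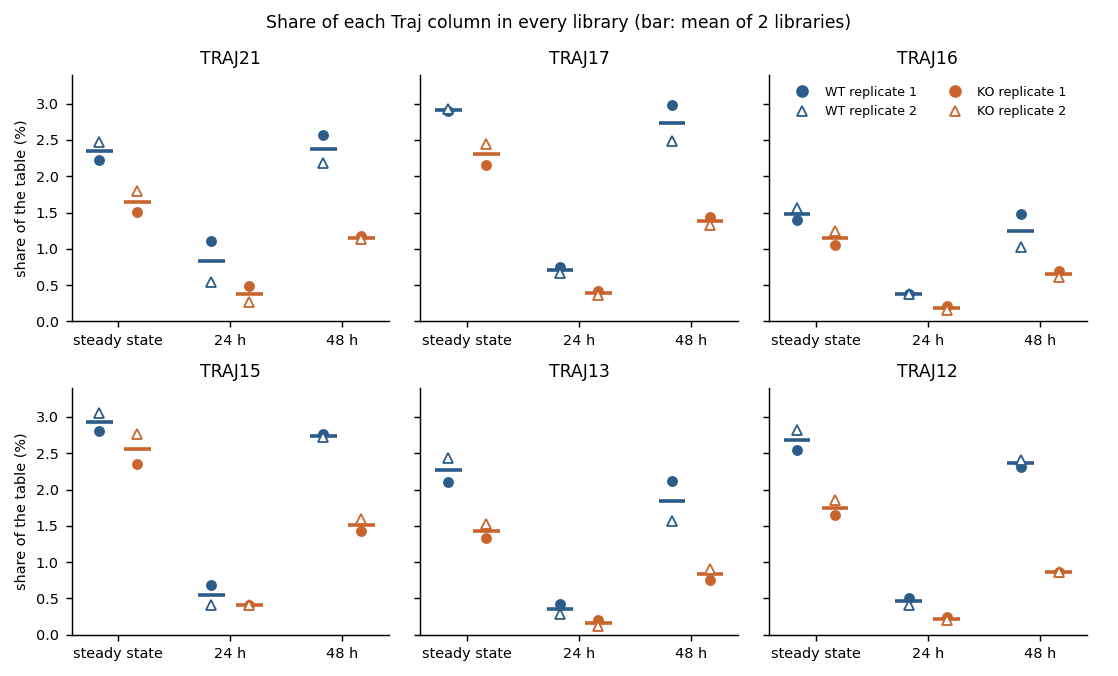
Share of each of the 6 Traj segments (percent of the table, vertical axis) by sampling, 1 panel per segment, with WT in blue, KO in orange, replicate 1 as filled circles, replicate 2 as open triangles and the mean of 2 libraries as a bar. In each segment the 24 h shares are lowest and both KO libraries lie below both WT libraries at each sampling.

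Differences between genotypes were tested with limma on log2(percent + 0.01) over all 43 columns and 12 libraries, with Benjamini-Hochberg adjustment over the 43 and a threshold of 0.05. Fold changes below are on that scale. At steady state 1 of the 6 segments was called lower (TRAJ12) and none higher, where 16.3% of all columns were lower and 9.30% higher. At 24 h 5 were lower (all but TRAJ15), against 58.1% lower and 14.0% higher among all columns. At 48 h all 6 were lower, against 37.2% lower and 27.9% higher. Averaged over the 3 samplings all 6 were lower, against 51.2% lower and 27.9% higher, and on the centred scale described below TRAJ15 lost that call (-0.13, limma adjusted p = 0.275). The median log2 change of the 6 was -0.43 at steady state and -1.0 at both 24 h and 48 h, where the median of all 43 columns was 0.04, -0.66 and -0.04. The lower call of most members at 24 h thus stood among many lower columns, whereas at 48 h the median column differed little. Centring each library on the mean of its log values moved the median of all columns at 24 h to -0.13 and left 1 of the 6 called lower there. Over all 43 columns the lower and higher calls went from 25 and 6 to 8 and 8. Centred values at 48 h had all 6 lower, with 15 columns lower and 19 higher against 16 and 12 uncentred.

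At steady state the count depended on how the spread was estimated. With the replicate number as a block, 4 segments were called lower: TRAJ21 (limma adjusted p = 0.00405), TRAJ17 (0.0117), TRAJ13 (0.0161) and TRAJ12 (0.00157). Fitted on the 4 steady-state libraries alone, 5 were lower, all but TRAJ15 (limma adjusted p = 0.183). No segment was called when replicate 2 of WT or replicate 1 of KO at steady state was left out.

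TRAJ21 is the most 5′ of the 6. Its share at steady state was 2.22% and 2.47% in WT and 1.51% and 1.79% in KO. At 24 h the WT libraries had 1.11% and 0.543%, and the KO libraries 0.495% and 0.264%. At 48 h the WT libraries had 2.57% and 2.18%, and the KO libraries 1.17% and 1.13%. The WT libraries at 24 h lay far apart, and the lower of them was close to the higher KO library. The log2 change was -0.51 (SE 0.34, 95% interval -1.26 to 0.25) at steady state, with an adjusted p of 0.253 by limma. It was -1.08 (SE 0.34, limma adjusted p = 0.0162) at 24 h and -1.04 (SE 0.34, limma adjusted p = 0.0211) at 48 h. TRAJ21 had the widest standard error of the 6.

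TRAJ17 lies downstream of TRAJ18 and was among the most used of the 6. Its share at steady state was 2.9% and 2.93% in WT and 2.16% and 2.44% in KO. At 24 h it was 0.756% and 0.662% in WT and 0.426% and 0.364% in KO. At 48 h it was 2.98% and 2.48% in WT and 1.44% and 1.33% in KO. The genotypes were clearly separated at 24 h and 48 h and closer at steady state. The log2 change was -0.35 (SE 0.15, 95% interval -0.67 to -0.02, limma adjusted p = 0.0919) at steady state. It was -0.83 (SE 0.15, limma adjusted p = 0.00159) at 24 h and -0.97 (SE 0.15, limma adjusted p = 0.00037) at 48 h.

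TRAJ16 was the least used of the 6 in most libraries. Its share at steady state was 1.4% and 1.56% in WT and 1.05% and 1.25% in KO. The 24 h shares were 0.376% and 0.382% in WT and 0.218% and 0.159% in KO. By 48 h it was 1.48% and 1.02% in WT and 0.701% and 0.61% in KO. The 48 h WT libraries were spread more widely than the KO libraries but stayed above both. The log2 change was -0.36 (SE 0.21, 95% interval -0.83 to 0.10, limma adjusted p = 0.192) at steady state. It was -0.99 (SE 0.21, limma adjusted p = 0.0026) at 24 h and -0.90 (SE 0.21, limma adjusted p = 0.00455) at 48 h.

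TRAJ15 had the smallest genotype difference of the 6 at each of the 3 samplings, though differences between segments were tested only as the steps below. Its share at steady state was 2.8% and 3.05% in WT and 2.35% and 2.76% in KO, so that the closest libraries nearly touched. At 24 h it was 0.68% and 0.412% in WT and 0.409% and 0.405% in KO. At 48 h it was 2.76% and 2.72% in WT and 1.43% and 1.6% in KO. At 24 h replicate 2 of WT, one of the 4 tables that stood apart, was level with the KO libraries. The log2 change was -0.20 (SE 0.21, 95% interval -0.66 to 0.26, limma adjusted p = 0.471) at steady state and -0.37 (SE 0.21, 95% interval -0.83 to 0.09, limma adjusted p = 0.119) at 24 h. At 48 h it was -0.85 (SE 0.21, limma adjusted p = 0.00533). Without the 4 tables, which leaves 1 library in each 24 h group, the 24 h change was -0.72. On the centred scale, with all 12 libraries, it was 0.16.

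TRAJ13 lies downstream of the pseudogene TRAJ14. Its share at steady state was 2.1% and 2.43% in WT and 1.33% and 1.52% in KO. In the 24 h cohorts it was 0.428% and 0.292% in WT and 0.203% and 0.117% in KO. In the 48 h cohorts it was 2.12% and 1.57% in WT and 0.757% and 0.906% in KO. Its KO mean was 62.9% of the WT mean at steady state, the lowest such ratio of the 6. The log2 change was -0.66 (SE 0.27, 95% interval -1.27 to -0.06, limma adjusted p = 0.0809) at steady state. It was -1.14 (SE 0.27, limma adjusted p = 0.00416) at 24 h and -1.13 (SE 0.27, limma adjusted p = 0.00533) at 48 h.

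TRAJ12 is the most 3′ of the 6. Its share at steady state was 2.55% and 2.82% in WT and 1.65% and 1.85% in KO. At 24 h it was 0.508% and 0.408% in WT and 0.246% and 0.2% in KO. The 48 h shares were 2.31% and 2.41% in WT and 0.862% and 0.869% in KO. The libraries of each group lay close together, and the genotypes were widely separated at 48 h. The log2 change was -0.61 (SE 0.15, limma adjusted p = 0.0138) at steady state, -1.0 (SE 0.15, limma adjusted p = 0.00079) at 24 h and -1.43 (SE 0.15, limma adjusted p = 5.07e-05) at 48 h. TRAJ12 was lower at each of the 3 samplings.

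**Figure D2:**
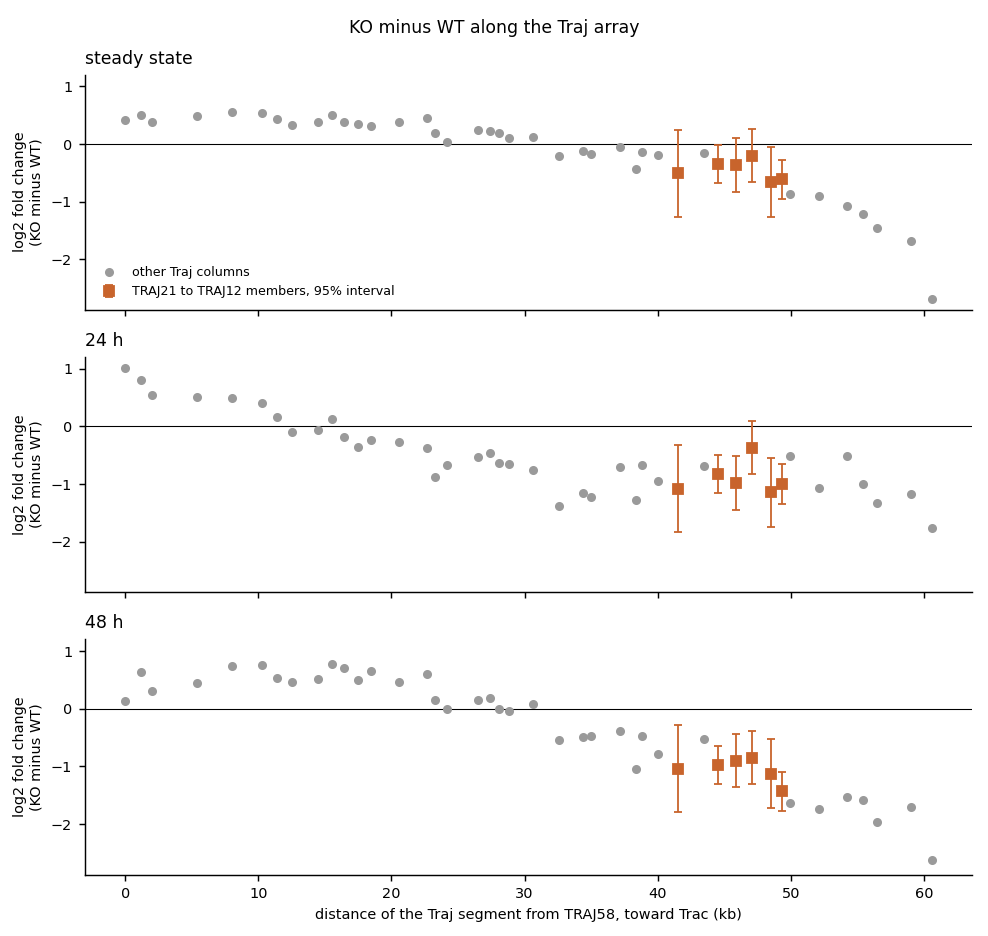
KO minus WT log2 change of every Traj column (vertical axis) against the distance of the segment from TRAJ58 in kb (horizontal axis), 1 panel per sampling, with the 6 segments as orange squares with 95% intervals and the other columns as grey points. At 48 h the 6 segments lie between -0.85 and -1.43, and the 7 columns 3′ of them lie lower still, with a median of -1.70.

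At steady state and 48 h, but not at 24 h, the 6 columns sat between a middle part of the array with little difference and a 3′ end with a larger one. The median log2 change of the 7 columns TRAJ11 to TRAJ2 was -1.22 at steady state and -1.70 at 48 h. In the 16 columns TRAJ40 to TRAJ22 it was 0.07 and -0.03. The 24 h medians were -1.06 for TRAJ11 to TRAJ2, close to the median of the 6, and -0.69 for TRAJ40 to TRAJ22, of which 14 of 16 were lower. The flanking column TRAJ22 had log2 changes of -0.19 for steady state, -0.94 for 24 h and -0.78 for 48 h, of which the later pair passed the limma test. TRAJ11 on the other side had -0.86, -0.52 and -1.63, all of which passed. TRAJ18, inside the stretch, had -0.16, -0.68 and -0.53, and none passed. Averaged over the 3 samplings, all 14 columns from TRAJ21 to TRAJ2 were called lower, TRAJ18 among them.

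Whether the genotype difference changed from one column to the next was tested on the log2 ratio of neighbouring columns, a test added after the data had been seen. Of the 8 steps that touch the stretch, none passed at a single sampling by limma (1 of them had an unadjusted p under 0.05 for steady state, 2 for 24 h and 1 for 48 h), where 1 of all 42 steps was lower at each (2.38%). Averaged over the samplings, the step from TRAJ21 to TRAJ18 was 0.42 (SE 0.09, limma adjusted p = 0.0243) and that from TRAJ15 to TRAJ13 was -0.51 (SE 0.13, limma adjusted p = 0.0489). In that average 7.14% of all steps were lower and 2.38% higher. With the replicate block the TRAJ15 to TRAJ13 step no longer passed (limma adjusted p = 0.0758). Leaving out any 1 steady-state library, or replicate 2 of WT at 24 h, WT at 48 h or KO at 48 h, left none of them passing. With the 4 tables left out 5 steps passed.

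The 6 shares rose between 24 h and 48 h in both genotypes. In WT the log2 change was 1.60 for TRAJ21, 1.93 for TRAJ17, 1.67 for TRAJ16, 2.35 for TRAJ15, 2.33 for TRAJ13 and 2.35 for TRAJ12, and all passed the limma test. The mean share was 2.87-fold (TRAJ21) to 5.15-fold (TRAJ12) higher at 48 h, and 4.06-fold higher for the sum of the 6. In KO the log2 changes were 1.64, 1.78, 1.76, 1.87, 2.35 and 1.92 in the same order, all passing, and the sum was 3.65-fold higher. Among all columns 51.2% rose and 25.6% fell in WT, and 67.4% rose and 18.6% fell in KO. The median rise of the 6 was 2.13 in WT and 1.83 in KO, beside medians over all columns of 0.44 and 1.26. On the centred scale these medians over all columns were -0.21 and 0.43, and all 6 still rose in both genotypes.

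The rise itself was not shown to differ between the genotypes. The KO minus WT difference of the log2 rises was 0.04 for TRAJ21 (95% interval -1.02 to 1.11), -0.14 for TRAJ17 (-0.61 to 0.32) and 0.09 for TRAJ16 (-0.57 to 0.74). It was -0.48 for TRAJ15 (-1.13 to 0.17), 0.01 for TRAJ13 (-0.84 to 0.87) and -0.43 for TRAJ12 (-0.91 to 0.05). None of the 6 passed by limma, and none had an unadjusted p under 0.05, while 6.98% of all columns had a lower and 23.3% a higher difference. With the replicate block TRAJ12 passed (limma adjusted p = 0.0111). Without replicate 1 of WT at 24 h, 1 segment passed.

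By 48 h the WT cohort stood near its steady-state level and the KO cohort below its own. Summed over the 6, the 48 h mean was 91% of the steady-state mean in WT and 59.1% in KO. By segment this ratio ran from 81.5% (TRAJ13) to 101% (TRAJ21) in WT and from 49.5% (TRAJ12) to 69.5% (TRAJ21) in KO. At 24 h the sums were 22.4% and 16.2% of steady state. The tests against steady state that follow were added after the data had been seen. The test of a larger genotype difference at 48 h than at steady state gave log2 values of -0.53 (TRAJ21, limma adjusted p = 0.748), -0.63 (TRAJ17, 0.148), -0.54 (TRAJ16, 0.521), -0.65 (TRAJ15, 0.332), -0.47 (TRAJ13, 0.748) and -0.82 (TRAJ12, 0.0796). None passed (3 of the 6 had an unadjusted p under 0.05), and 0% of all columns did. With the replicate block 3 passed: TRAJ21 (0.0307), TRAJ17 (0.0174) and TRAJ12 (0.00641). Without the 4 tables all 6 passed. For 24 h against steady state the values ran from -0.17 (TRAJ15) to -0.63 (TRAJ16). None of these passed by limma (1 had an unadjusted p under 0.05), where 30.2% of all columns were lower and 2.33% higher. With the block 4 passed, and 1 did with the 4 tables left out.

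The order of the 6 by level was similar across libraries. In WT at steady state the mean shares were 2.92% for TRAJ15, 2.91% for TRAJ17, 2.68% for TRAJ12, 2.34% for TRAJ21, 2.26% for TRAJ13 and 1.48% for TRAJ16. TRAJ17 and TRAJ15 were above TRAJ12 in 12 of 12 libraries, and TRAJ12 was above TRAJ13 in 11 of 12. TRAJ17 against TRAJ15 (6 of 12) and TRAJ12 against TRAJ21 (5 of 12) had no fixed order. TRAJ16 was below TRAJ21, TRAJ17, TRAJ15 and TRAJ12 in 12 of 12 libraries and below TRAJ13 in 9 of 12. In WT at 24 h TRAJ21, the most 5′ of the 6, had the highest mean, at 0.826%, which rested on replicate 1 (1.11%). In replicate 2 TRAJ21 had 0.543% and TRAJ17 was higher, at 0.662%.

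The columns with the most similar profile over the 12 libraries, by Pearson correlation of the log2 shares, were for the most part other members. For TRAJ21 they were TRAJ13 (r = 0.978) and TRAJ28 (0.969). For TRAJ17 they were TRAJ12 (0.994) and TRAJ16 (0.993), for TRAJ16 they were TRAJ17 (0.993) and TRAJ13 (0.99), and for TRAJ12 they were TRAJ17 (0.994) and TRAJ13 (0.99). For TRAJ13 they were TRAJ17 (0.993) and TRAJ12 (0.99), and for TRAJ15 they were TRAJ17 (0.981) and TRAJ18 (0.98). These values describe 12 libraries in 6 groups that share totals and sampling times. By Euclidean distance of the log2 shares, which also counts the level, TRAJ17 and TRAJ15 were nearest to each other (0.809). The next nearest to both of these was TRAJ18 (0.865 and 1.02). TRAJ21 was nearest to TRAJ17 (1.23) and TRAJ22 (1.26), TRAJ16 to TRAJ6 (1.48) and TRAJ13 (1.5), TRAJ13 to TRAJ12 (1.26) and TRAJ9 (1.27), and TRAJ12 to TRAJ13 (1.26) and TRAJ21 (1.72).

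The Trav partners of the 6 were described over the 79 Trav rows that all 12 tables list, ranked along the chromosome from 1, the row farthest from the Traj array, to 79, the nearest. The mean rank of a segment's partners, weighted by share, is low where joints reach far upstream. Several Trav genes are near-identical copies (the D-suffixed duplicates), so reads of a single row can belong to another copy and its rank is uncertain. The mean partner rank of each of the 6 was below that over all 43 columns in 12 of 12 libraries. Across the 43 columns of a library the rank tended to fall with position toward the 3′ end, with Spearman values from -0.553 to -0.973. The fall did not hold to the end of the array. At 48 h the most 3′ column, TRAJ2, had a mean rank of 46.7 in WT and 52.2 in KO, above the 44.1 and 48.8 over all columns. At steady state and 24 h it was below that over all columns. The columns share each library's Trav usage, and no p is given.

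At steady state the partner rank of TRAJ12 was 32.4 and 30.5 in WT and 37.1 and 35.7 in KO. At 48 h it was 35 and 36.3 in WT and 43.6 and 44.8 in KO. TRAJ21, at the other end, had 35.1 and 33.4 in WT and 38.1 and 36.3 in KO at steady state. At 48 h its libraries had 35.2 and 39.4 in WT and 42.5 and 45.1 in KO. The KO libraries used partners closer to the Traj array in both. At 24 h the ranks of TRAJ12 were 47.4 and 52 in WT and 49.4 and 46.7 in KO, and the genotypes overlapped. Those of TRAJ21 at 24 h were 47.3 and 47.4 in WT and 49.7 and 51.8 in KO.

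The KO minus WT difference in partner rank at 48 h was 6.45 for TRAJ21 (limma adjusted p = 0.0102), 7.39 for TRAJ16 (0.00435), 6.76 for TRAJ13 (0.00562) and 8.51 for TRAJ12 (0.00394), which passed. It was 5.03 for TRAJ17 (0.0662) and 4.81 for TRAJ15 (0.0733), which did not. The count of 4 of 6 stands beside 37.2% of all columns higher and 0% lower, and the median difference of the 6 was 6.60 beside 3.83 for all. With the replicate block, without the 4 tables or without the TRAV15 rows, all 6 passed, and with the 48 h libraries alone 2 did. Leaving out replicate 1 of WT or replicate 2 of KO at 48 h also left 2. At steady state the differences ran from 2.93 (TRAJ21) to 4.97 (TRAJ12), with a median of 3.85 beside 2.24 for all columns. None of the 6 passed by limma there (2 had an unadjusted p under 0.05), 2.33% of all columns were higher and 0% lower, and with the steady-state libraries alone all 6 passed. At 24 h the differences ran from -1.68 to 6.00, none passed by limma (2 had an unadjusted p under 0.05), and 0% of all columns did. Averaged over samplings, 5 of the 6 had a higher rank in KO and TRAJ17 did not pass (2.98, limma adjusted p = 0.0533), while 39.5% of all columns were higher. With the block it passed as well.

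The partner rank fell between 24 h and 48 h. In WT the change was -10.03 for TRAJ21, -11.34 for TRAJ17, -14.03 for TRAJ16, -9.49 for TRAJ15, -8.67 for TRAJ13 and -14.05 for TRAJ12, and all 6 passed the limma test. In KO it ran from -9.03 (TRAJ15) to -3.86 (TRAJ12), and all but TRAJ12 passed (limma adjusted p = 0.0769). Among all columns 76.7% fell in WT and 55.8% in KO, and 0% rose. Leaving out 1 library at a time gave 2 to 6 in KO, and without the 4 tables all 6 fell in both genotypes.

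**Figure D3:**
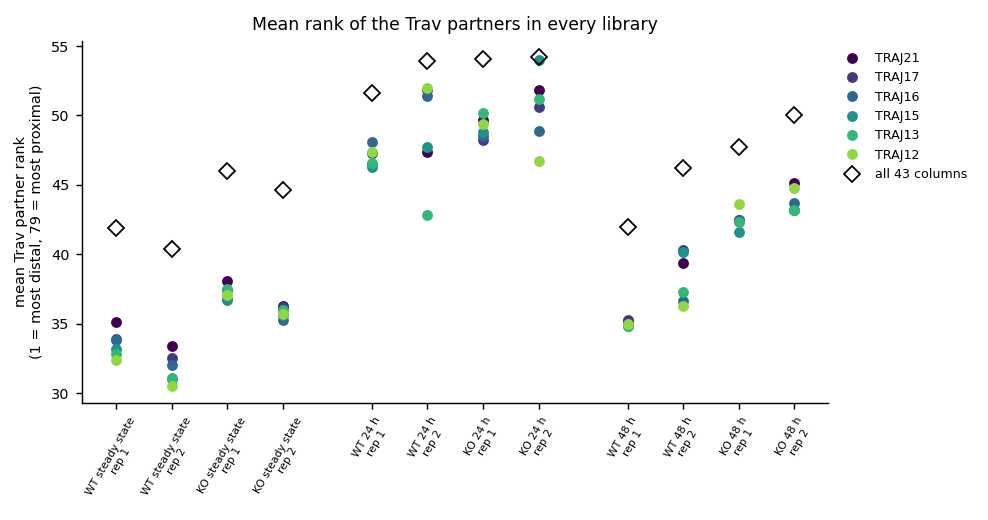
Share-weighted mean rank of the Trav partners (vertical axis, 1 for the most distal and 79 for the most proximal Trav row) of each of the 6 segments as coloured points, 1 column of points per library, with the same quantity over all 43 columns as an open diamond. The points lie below the diamond in each library, are higher at 24 h than at 48 h within each genotype, and at 48 h are higher in both KO libraries than in both WT libraries.

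The 79 rows were split into 3 zones along the chromosome. The lower KO shares lay mostly in joints with distal and central rows at 48 h, and in joints with all 3 zones at 24 h. The distal zone held 26 rows (TRAV1 to TRAV12D-3), the central zone 26 (TRAV14D-2 to TRAV12-1) and the proximal zone 27 (TRAV13-1 to TRAV21/DV12). Of the summed share of the 6, distal rows made up 38.8% and 41.1% in WT and 30.5% and 32.6% in KO at steady state. At 24 h they made up 16.8% and 14.4% in WT and 15.2% and 14.1% in KO. At 48 h they made up 34.9% and 26.5% in WT and 22.4% and 20.2% in KO. Proximal rows made up 20.4% and 15.6% against 25.2% and 21.7% at steady state, 47% and 54.9% against 52.3% and 60.2% at 24 h, and 21.2% and 30.5% against 36.4% and 41.9% at 48 h. Proximal partners of the 6 were thus most prominent at 24 h, but this held over all 43 columns as well. Proximal rows there averaged 61.7% (WT) and 65% (KO) in the 24 h cohorts. Their steady-state means were 36% (WT) and 43.7% (KO), and their 48 h means 43.3% (WT) and 53.5% (KO). Distal rows over all columns were also lower in KO, with steady-state means of 28.7% (WT) and 22% (KO). At 48 h replicate 2 of WT, which is one of the 4 tables, had fewer distal and more proximal partners than replicate 1. TRAV15-2/DV6-2, a proximal row, made up 11.9% to 20.6% of the summed share of the 6 in the 4 tables and 0.295% to 1.42% in the others.

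At 48 h the share of joints with distal rows was lower in KO for all 6 segments. The log2 changes were -1.43 for TRAJ21, -1.38 for TRAJ17, -1.63 for TRAJ16, -1.12 for TRAJ15, -1.54 for TRAJ13 and -2.09 for TRAJ12 (SE 0.23 to 0.40). With central rows 4 were lower, at -1.33 for TRAJ21, -0.98 for TRAJ17, -1.40 for TRAJ13 and -1.61 for TRAJ12, and TRAJ16 (-0.68, limma adjusted p = 0.24) and TRAJ15 (-0.92, 0.062) did not pass. With proximal rows the values ran from -0.29 to -0.53 and none of the 6 passed by limma (1 had an unadjusted p under 0.05). The total of 10 of 18 stands beside 30.2% lower and 9.30% higher among all 129 column-by-zone features. At steady state 1 of 18 passed, TRAJ12 with distal rows (-0.99, limma adjusted p = 0.0276), beside 7.75% lower and 0% higher, and 6 passed with the replicate block and 9 with the steady-state libraries alone. At 24 h 13 of 18 were lower, beside 44.2% lower and 3.88% higher. These were 3 of 6 with distal rows (TRAJ21 at -1.06, TRAJ16 at -0.92 and TRAJ13 at -1.42), 5 of 6 with central rows (all but TRAJ16, at -0.81) and 5 of 6 with proximal rows (-0.75 to -1.16, all but TRAJ15, at -0.08). On the centred scale none was, and without replicate 2 of KO at 24 h 1 was. Without replicate 1 of WT at 24 h 4 of 18 were lower. Averaged over samplings 15 of 18 were lower (6 distal, 5 central, 4 proximal), beside 39.5% lower and 17.8% higher. On the centred scale none of the 4 proximal ones passed.

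**Figure D4:**
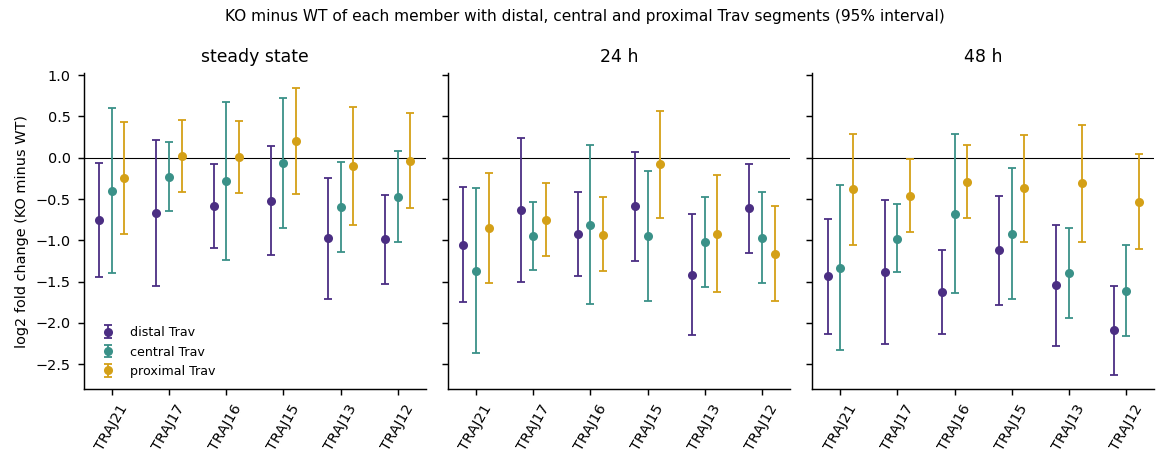
KO minus WT log2 change (vertical axis) of the share of each of the 6 segments joined to distal, central or proximal Trav rows, as points with 95% intervals, 1 panel per sampling. The 48 h distal values run from -1.12 to -2.09 and the 48 h proximal values from -0.29 to -0.53.

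The difference between distal and proximal joints was tested directly on their log2 ratio within each segment, a test added after the data had been seen. At 48 h the ratio was lower in KO by 1.05 for TRAJ21 on the log2 scale, a change of -1.05 (limma adjusted p = 0.0442). It changed by -1.34 for TRAJ16 (limma adjusted p = 0.00862), -1.23 for TRAJ13 (0.0237) and -1.56 for TRAJ12 (0.0114). TRAJ17 (-0.92, 0.159) and TRAJ15 (-0.75, 0.232) did not pass. The 4 of 6 stand beside 23.3% of all columns. Without the TRAV15 rows all 6 passed. With the 48 h libraries alone, or without replicate 2 of KO at 48 h, none did. At steady state the changes ran from -0.51 to -0.95 and none passed by limma (2 had an unadjusted p under 0.05), beside 2.33% of all columns. At 24 h none passed and none had an unadjusted p under 0.05, beside 0%. Averaged over samplings 4 passed (TRAJ21, TRAJ16, TRAJ13 and TRAJ12), beside 32.6%, and leaving out 1 library at a time gave 0 to 6.

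The first partners of the 6 were much alike, but depended on the tables. Over all 12 libraries TRAV7-4, a central row, had the highest mean share for each segment, from 0.0304% of the table with TRAJ16 to 0.0722% with TRAJ15. TRAV7-3, also central, was among the first 3 for all 6. TRAV15-2/DV6-2 was the other for TRAJ21, TRAJ17, TRAJ15 and TRAJ12, TRAV14-1 for TRAJ16 and TRAV12D-2 for TRAJ13. Over the 8 tables that sum to nearly 1, the first place went to TRAV7-3 for all 6, from 0.0425% with TRAJ16 to 0.0973% with TRAJ15. TRAV7-3 was above TRAV7-4 in 8 of these 8 tables with TRAJ17 and in 4 to 7 of 8 with the other segments, and in 0 of the other 4 tables with any. The first place of TRAV7-4 thus came from the 4 tables. So did the place of TRAV15-2/DV6-2. With TRAJ17 it held 0.0121% and 0.0108% in WT at steady state and 0.425% in replicate 2 of WT at 48 h. Replicate 1 of that group held 0.0114%. TRAV7-3 did the opposite: with TRAJ16 it held 0.0546% and 0.0687% in WT at steady state and 0.0636% in replicate 1 of WT at 48 h, and it was at 0 in replicate 2.

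Single pairs passed the test when averaged over samplings. Of the 474 pairs with the 6 segments 6 were lower and none higher, beside 1.09% lower and 0% higher among all 3397 pairs. That count was 0 with a pseudocount of 0.001 and 0 over pairs of at least 0.01% mean share. With the 4 tables left out, pairs at 24 h and 48 h have 1 library per group, so no count is given. TRAV1, the most distal Trav row of those shared, with TRAJ12 held 0.0612% and 0.0687% in WT and 0.0174% and 0.0209% in KO at steady state. At 48 h it held 0.0279% and 0.0378% in WT, and 0.0034% and 0% in KO. The WT libraries were above the KO libraries at both samplings. At 24 h the pair held 0% in both WT libraries and 0.000821% and 0% in KO, so KO was not lower there. The averaged log2 change, which includes 24 h, was -1.06 (SE 0.14, limma adjusted p = 0.0195). TRAV13D-1 with TRAJ12 changed by -1.19 (SE 0.19, limma adjusted p = 0.0382) and TRAV6D-3 with TRAJ12 by -0.92 (SE 0.15, limma adjusted p = 0.0395). TRAV4D-4, a central row, changed by -1.17 with TRAJ13 (SE 0.18, limma adjusted p = 0.026) and by -0.94 with TRAJ21 (SE 0.14, limma adjusted p = 0.026). The pair of TRAV4D-4 with TRAJ12 (-0.83, limma adjusted p = 0.0465) was named after its value was seen. TRAV4D-4 with TRAJ21 held 0.0612% and 0.0527% in WT and 0.0317% and 0.0373% in KO at steady state. Of the single samplings, no pair with the 6 passed by limma at steady state (20 had an unadjusted p under 0.05), at 24 h (19) or at 48 h (114). Among all pairs 0.294% were lower at steady state and 0% in either labelled cohort. With the replicate block 22 member pairs passed at 48 h and 21 in the average. Leaving out 1 library at a time gave 0 to 51 at 48 h and 0 to 45 in the average.

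The non-overlap of single pairs followed the zones at steady state and 48 h and not at 24 h. At steady state both KO libraries were below both WT libraries in 247 of 474 member pairs (52.1%), beside 28.2% of all pairs. In the distal zone this held for 132 of 156 (84.6%, beside 43.1%), in the central zone for 91 of 156 (58.3%, beside 31.5%) and in the proximal zone for 24 of 162 (14.8%, beside 10.8%). In the proximal zone 40 of 162 member pairs (24.7%) were higher in both KO libraries, beside 44.3% of all proximal pairs. At 48 h the lower counts were 81 of 156 (51.9%, beside 21.3%) for distal, 59 of 156 (37.8%, beside 15.4%) for central and 25 of 162 (15.4%, beside 7.84%) for proximal rows, and 165 of 474 (34.8%, beside 14.7%) in all. At 24 h the count was 103 of 474 (21.7%, beside 17.7%), with 30 of 156 distal (19.2%, beside 16.8%), 35 of 156 central (22.4%, beside 17.4%) and 38 of 162 proximal pairs (23.5%, beside 18.9%). There the zones were nearly level, and members stood only a little above all pairs. In the other direction, both KO libraries were above both WT libraries in 9.07% of member pairs at steady state, beside 31.5% of all pairs. This held for 1.69% beside 5.59% at 24 h and for 1.69% beside 13.4% at 48 h. In the proximal zone at 48 h it held for 4.32% beside 21%. Many pairs are at 0 in the 4 tables, which lowers the counts possible at 24 h and 48 h. Pairs of one library share their Trav and Traj segments and are not independent.

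**Figure D5:**
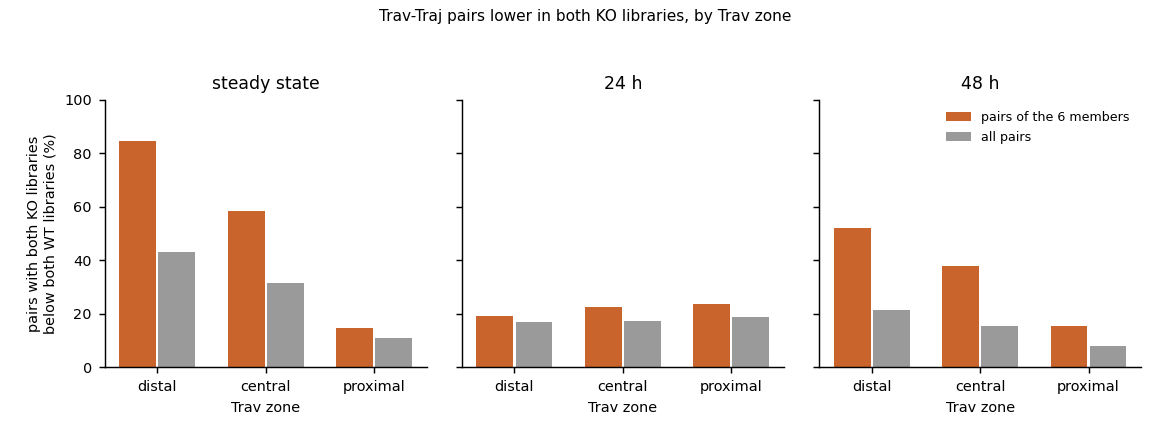
Percent of Trav-Traj pairs in which both KO libraries lie below both WT libraries (vertical axis, from 0), by Trav zone, for pairs of the 6 segments in orange and all pairs in grey, 1 panel per sampling. At steady state the pairs of the 6 segments reach 84.6% in the distal, 58.3% in the central and 14.8% in the proximal zone, while at 24 h they lie between 19.2% and 23.5% in all zones.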

How the data were processed

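Tcra transcripts were amplified by template-switch RACE with a Trac primer, per the labels' protocols. The authors deposited 12 tables (1 per library) of the fraction of the repertoire held by each Trav-Traj pair. The depth is unknown, and the aligner, counting unit, filters and genome build were not given in the sources used here. Groups and replicate numbers came from the sample titles. Each of the 43 Traj columns was summed and divided by its table's total. limma 3.58.1 (R 4.3.3) was fitted to log2(percent + 0.01) over all 12 libraries with 1 mean per group, likewise to 129 column-by-zone shares and 3397 pairs of the 79 shared Trav rows, and to partner ranks. P-values were adjusted by Benjamini-Hochberg over each whole table at 0.05. The fits were also run on simulated log values, drawn independently with known changes. These had no fixed totals, no correlated libraries and no tables that stood apart, so the run cannot speak for those traits. The members and lists were chosen with earlier results of these data known. All 6 segments are named throughout, together with the 3 Trav rows of highest mean share per segment, the 5 called pairs of largest change per direction, and the 2 columns nearest in pattern. Deviations from group means of same-numbered WT and KO libraries correlated over the columns. The r was 0.948 for steady state, 0.666 for 24 h and 0.415 for 48 h. The numbers were therefore used as a block in an alternative fit, from the data and not from the labels, while the main fit had no block. At 24 h and 48 h, replicate 2 of both genotypes is one of the 4 tables that stood apart. The 24 h and 48 h libraries of one genotype also correlated (r = 0.514 in WT and 0.499 in KO). For the labelled cohorts the check thus cannot tell pairing from the kind of table. Alternatives were the pseudocount (0.001 or 0.1), centring, a replicate block, low-value filters, each library left out and each sampling alone. Added after seeing the data were leaving out 4 tables or the TRAV15 rows, the step test and the distal to proximal ratio. So were the tests of the 48 h and 24 h genotype differences against steady state.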

Additional observations from a re-analysis of the deposited data

How the results depend on the processing

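Counts are given for the 6 segments unless stated. At steady state the lower calls were 2 with a pseudocount of 0.1, 4 with the replicate block, 5 with the steady-state libraries alone and 5 without the 4 tables that stood apart. With values centred, 1 was called at 24 h. For the difference of the 24 h to 48 h rises the counts were 1 with a pseudocount of 0.1, 1 centred and 1 with the block. For 48 h against steady state they were 3 with the block, 1 over columns of at least 1%, 1 with those libraries alone and 6 without the 4 tables. For 24 h against steady state they were 4 with the block and 1 without the 4 tables. Partner ranks gave 6 at steady state alone, 6 there without the 4 tables and 2 with the 48 h libraries alone. The distal to proximal ratio gave 1 at steady state with the block and 0 with the 48 h libraries alone. Steps gave 5 at steady state alone, 5 there and 5 at 48 h without the 4 tables. Averaged steps gave 1 with a pseudocount of 0.001, 1 with the block and 5 without the 4 tables. Zone features gave, at steady state, 2 with a pseudocount of 0.1, 6 with the block, 9 alone and 9 without the 4 tables, and at 24 h 8 with a pseudocount of 0.1, 0 centred and 0 with the 24 h libraries alone. Pairs gave, at steady state, 2 with a pseudocount of 0.1 and 43 without the 4 tables, and at 48 h 12, 22 with the block and 185 without the 4 tables. Averaged pairs gave 0 with a pseudocount of 0.001, 16 with 0.1, 21 with the block, 0 over pairs of at least 0.01% and 230 without the 4 tables. Leaving out 1 library at a time gave 0 to 2 at steady state, 0 to 1 for the difference of rises and 0 to 1 for 24 h against steady state. It gave 0 to 1 (steady state), 0 to 1 (24 h) and 2 to 6 (48 h) for ranks and 2 to 6 for the KO rank change with time. The ratio gave 0 to 1 (steady state), 0 to 6 (48 h) and 0 to 6 (average), steps 0 to 2 (24 h), 0 to 1 (48 h) and 0 to 2 (average), zones 0 to 2 (steady state) and 1 to 16 (24 h), and pairs 0 to 1, 0 to 51 and 0 to 45.

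Some signs turned, all in values that had not passed. TRAJ15 at 24 h was 0.16 centred. The difference of rises for TRAJ21, TRAJ16 and TRAJ13 was -0.06, -0.08 and -0.23 with a pseudocount of 0.1 and -0.14, -0.10 and -0.17 centred. For TRAJ13 it was -0.00 over shared Trav rows, and without the 4 tables it was -0.31 (TRAJ16) and -0.43 (TRAJ13). TRAJ15 at 24 h against steady state was 0.21 centred. Ranks at 24 h were 0.47 (TRAJ16) and 1.94 (TRAJ12) without the 4 tables and -0.17 (TRAJ17) over all Trav rows. The 24 h ratio was -0.03 (TRAJ17) and -0.20 (TRAJ12) without the 4 tables. Averaged steps without them were 0.01 (TRAJ17 to TRAJ16), 0.05 (TRAJ13 to TRAJ12) and -0.17 (TRAJ12 to TRAJ11). TRAJ15 with proximal rows, averaged, was 0.26 centred. Leaving out 1 library gave -0.47 to 0.55 (TRAJ21), -0.36 to 0.38 (TRAJ13) and -0.18 to 0.35 (TRAJ16) for the difference of rises, and -0.53 to 0.18 for TRAJ15 at 24 h against steady state. It gave -2.40 to 2.93 (TRAJ17), -2.74 to 0.66 (TRAJ16) and -3.98 to 0.61 (TRAJ12) for 24 h ranks, and -0.41 to 0.65 (TRAJ17) and -0.12 to 0.13 (TRAJ16) for the 24 h ratio. It gave -0.10 to 0.14 (TRAJ12 to TRAJ11), -0.08 to 0.01 (TRAJ17 to TRAJ16) and -0.12 to 0.04 (TRAJ13 to TRAJ12) for averaged steps, and -0.20 to 0.03 for TRAJ15 with proximal rows. Fewer libraries give fewer degrees of freedom. Otherwise the cause was not tested. The replicate block moved no other count of the 6 by over 1.5 times. The depth behind the tables is unknown, so whether a pair at 0 was absent or missed was not detectable.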

Other observations

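Beyond the 79 Trav rows that all tables list, 6 rows appear in some tables only. TRAV2 was listed in 11 tables, where it held at most 0.35% of a table in joints with the 6 segments. TRAV5-1 was listed in 8 tables with at most 0.452%, and TRAV13D-2 in 8 with at most 0.18%. TRAV4D-2 in 11 tables, TRAV18 in 5 and TRAV7-6 in 4 held at most 0.0803%, 0.000785% and 0.00173%. These rows count in the shares of the segments and not in the partner ranks, zones and pairs.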
